A study of Homo sapiens with 12 samples.

Results

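Integrins are the receptors by which blood cells hold on to other cells and to the surrounding matrix. Here 10 integrin subunit genes, chosen by name, were followed through mRNA-seq of 2 acute myeloid leukemia cell lines with and without the compound OGP46. They are ITGAL, ITGAM, ITGAX, ITGA3, ITGA4, ITGA5 and ITGAE, which encode 7 alpha subunits, and ITGB1, ITGB2 and ITGB7, which encode 3 beta subunits. All 10 were found among the 20003 gene symbols with a value in every sample. NB4 is an acute promyelocytic leukemia cell line with the PML-RARα fusion, and Kasumi-1 cells derive from an AML with the t(8;21) translocation and its AML1-ETO fusion. The groups were NB4 controls, NB4 cells with OGP46, Kasumi-1 controls and Kasumi-1 cells with OGP46, with 3 samples in each. The controls received DMSO, OGP46 was given at 1 μM, and all cells were incubated for 48 h. Each condition rests on 1 established line, so cell line, fusion and culture cannot be told apart in any difference between NB4 and Kasumi-1.

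An integrin is a pair of 1 alpha and 1 beta chain, and a chain reaches the cell surface only with a partner. The beta-2 integrins are the leukocyte integrins: ITGB2 (CD18) pairs with ITGAL (CD11a) as LFA-1, which binds ICAM molecules, with ITGAM (CD11b) as Mac-1, which binds complement fragment iC3b, ICAM1 and fibrinogen, and with ITGAX (CD11c), a further complement receptor. ITGAM and ITGAX appear as myeloid cells mature and are used as surface markers of granulocytes, monocytes and dendritic cells. ITGB1 pairs with ITGA3 to bind laminin, with ITGA4 as VLA-4 to bind VCAM1 and fibronectin, and with ITGA5 to bind fibronectin, contacts that hold progenitors in the bone marrow. ITGB7 pairs with ITGA4 for homing to the gut and with ITGAE (CD103), the receptor for E-cadherin on lymphocytes of the epithelium.

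The genes lie on 6 chromosomes of GRCh38, the build in the submitters' processing notes. ITGAL (30472658 to 30523185), ITGAM (31259967 to 31332892) and ITGAX (31355134 to 31382997) are all on the plus strand of chromosome 16, and 22241 bases separate ITGAM from ITGAX. ITGB2 lies on chromosome 21 (44885953 to 44931989), ITGA3 on 17 (50055968 to 50090481), ITGA4 on 2 (181457202 to 181536187) and ITGB1 on 10 (32900319 to 33005792). ITGA5 (54395261 to 54419460) and ITGB7 (53191318 to 53207307) are on chromosome 12, and ITGAE is on 17 (3714628 to 3801243).

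The sequences upstream of ITGAM, ITGB7 and ITGA4 are shown because these genes mark the ends of the range: ITGAM and ITGB7 were expressed in NB4 and close to 0 in Kasumi-1, while ITGA4 differed little between the lines. RefSeq gives 250 bases before an annotated start on GRCh38.p14, and the part of these that lies outside the gene's GENCODE span is printed, 5′ to 3′ on the gene's strand. The stretches are chr16:31259725-31259966 (plus strand, 242 bases) for ITGAM, chr12:53207308-53207501 (minus strand, 194 bases) for ITGB7 and chr2:181457136-181457201 (plus strand, 66 bases) for ITGA4. Capitals mark GAGGAA. This is the purine-rich form of the GGAA core that ETS factors such as PU.1, a regulator of myeloid genes, bind.
ITGAM: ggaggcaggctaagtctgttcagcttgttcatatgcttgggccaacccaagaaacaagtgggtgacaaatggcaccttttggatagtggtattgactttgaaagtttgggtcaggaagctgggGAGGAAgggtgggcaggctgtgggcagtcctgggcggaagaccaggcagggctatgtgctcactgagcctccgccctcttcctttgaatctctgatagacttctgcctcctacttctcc
ITGB7: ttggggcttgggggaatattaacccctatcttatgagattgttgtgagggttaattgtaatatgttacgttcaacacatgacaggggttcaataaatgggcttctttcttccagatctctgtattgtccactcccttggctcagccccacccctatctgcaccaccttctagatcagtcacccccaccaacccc
ITGA4: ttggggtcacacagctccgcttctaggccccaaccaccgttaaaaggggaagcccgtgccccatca
In the full windows of 250 bases, GAGGAA was searched on both strands and occurred once in ITGAM, once in ITGB7, downstream of the printed stretch, and not in ITGA4. It also occurred once in ITGAE and once in 1 of the 2 windows of ITGB1, and not in ITGA5, so that 4 of the 6 genes with a window held it. Of all 35116 windows of this length, 23.6% held it, which makes it a common string. The shorter GGAA, which lies within GAGGAA, was in 92.7% of all windows and in every window of these genes. GGGCGG, the GC box, was in 42.6% of all windows and in those of ITGAM and ITGA5 and 1 of ITGB1. The AP-1 string TGANTCA was in 6.57% of all windows and in none of these genes. A match is a string of letters and not a bound site, and no binding was measured.

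The values are FPKM, fragment numbers normalized for exon length and for the library total, so that levels of genes of different length can be set side by side. They carry no read counts, the sequencing depth is unknown, and the precision rests on the spread of 3 samples. Summed over all genes, FPKM came to 248207 to 310262 per sample, and between 9339 and 9746 genes reached 1 FPKM. The markers of Kasumi-1 matched the labels: 5 genes of t(8;21) leukemia summed to 237 to 299 FPKM in the Kasumi-1 samples and 0.563 to 3.599 FPKM in NB4. The highest of the NB4 values was control 3, where the median marker stood at 0.950% of its level in Kasumi-1 controls. The 3 markers listed for NB4 did not set the lines apart. STAB1 was at 9.21 ± 0.111 FPKM in NB4 controls and 0.332 ± 0.113 in Kasumi-1 controls, but HGF was higher in Kasumi-1 controls (13.5 ± 2.25 against 8.83 ± 2.01 FPKM) and FGF13 was at 0 in NB4 and at 0.208 ± 0.0937 FPKM in Kasumi-1 controls (SD, n = 3). Of 6 promyelocyte and myeloid markers, at least 5 averaged 1 FPKM or more in every group. Their sum was 2598 to 3873 FPKM in NB4 controls and 1595 to 2790 with OGP46. These ranges overlapped, but the sum was lower with OGP46 in each of the 3 pairs of same-numbered samples. In Kasumi-1 it was 9625 to 11883 FPKM in controls and 7789 to 8968 with OGP46, without overlap. The means of MPO, ELANE, PRTN3 and AZU1 were lower with OGP46 in both lines, and MPO, at 2896 ± 469 FPKM in controls, held most of the NB4 sum. Mean CD33 went the other way, from 8.08 to 9.97 FPKM in NB4 and from 8.57 to 11.1 in Kasumi-1. Mean CSF3R went from 5.01 to 6.30 FPKM in NB4 and from 92.5 to 89.0 in Kasumi-1. The part of these shifts in the integrin values was not tested. Lists for platelets (3 genes), red cells (5), stroma (4) and endothelium (2) summed to at most 0.184 FPKM in any sample. The 3 B cell markers summed to 0.870 to 2.08 FPKM, and MS4A1 was at 0. The 3 T cell markers summed to 13.5 to 20.4 FPKM in NB4 controls and 22.5 to 34.7 with OGP46, nearly all of it CD3D, while CD2 was at 0 in NB4, and to at most 0.700 FPKM in Kasumi-1.

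In NB4 controls, 4 subunits made up most of the integrin message. ITGB2 was highest at 49.2 ± 1.65 FPKM (SD, n = 3), followed by ITGA4 at 41.1 ± 0.901, ITGA5 at 21.9 ± 5.26 and ITGB1 at 18.1 ± 1.72. The ranges of ITGA5 and ITGB1 overlapped, so their order is not set. Then came ITGB7 at 3.26 ± 0.662 and ITGAM at 2.74 ± 0.290, whose ranges also overlapped. ITGAL stood at 1.35 ± 0.333 and ITGAE at 1.08 ± 0.178, again with overlap, and ITGAX at 0.665 ± 0.116 and ITGA3 at 0.125 ± 0.00883 were the lowest. In Kasumi-1 controls the order was another one. ITGB1 led at 78.0 ± 1.08 FPKM, before ITGA4 at 39.3 ± 1.43, ITGA5 at 33.2 ± 3.39 and ITGB2 at 8.66 ± 2.65, with no overlap between these neighbours. The other 6 genes were all below 1 FPKM on average, from ITGAE at 0.626 ± 0.0261 and ITGA3 at 0.617 ± 0.104, which overlapped, through ITGAL at 0.228 ± 0.0516, ITGAX at 0.129 ± 0.0429 and ITGAM at 0.0862 ± 0.00721 to ITGB7 at 0.0326 ± 0.0367. The ranges of ITGAX and ITGAM also overlapped. Together the 10 genes held 96.0% ± 0.388 of the summed FPKM of all 26 integrin subunits in NB4 controls and 88.8% ± 0.602 in Kasumi-1 controls (SD, n = 3).

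**Figure D1:**
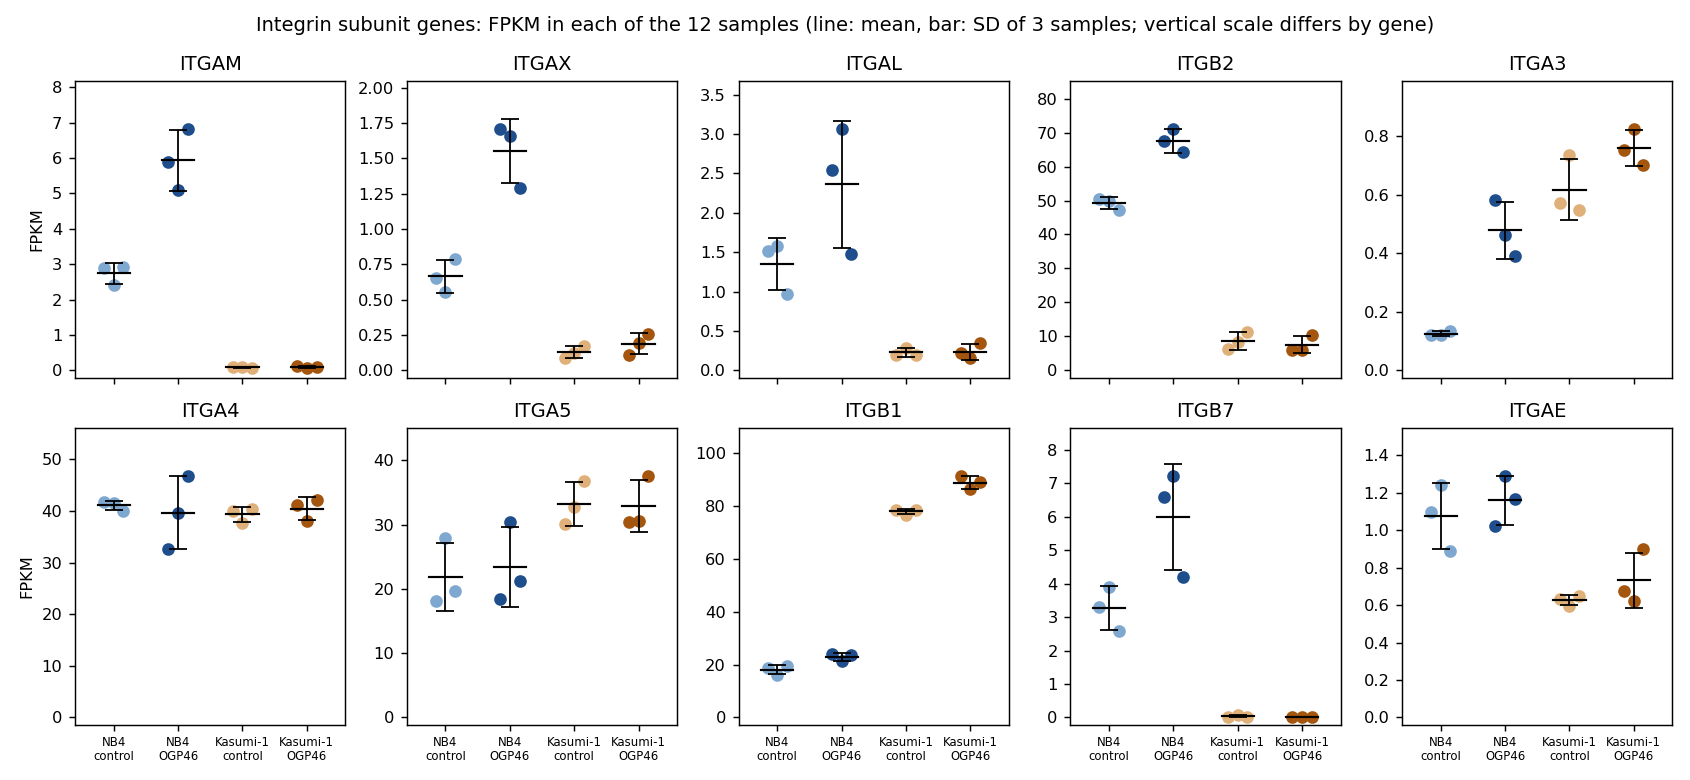
FPKM (vertical axis, a scale of its own for each gene) of the 10 integrin subunit genes in each of the 12 samples, with the 4 groups along the horizontal axis, 1 point per sample, the group mean as a line and the SD of 3 samples as a bar. ITGAM, ITGAX, ITGB2, ITGA3, ITGB1 and ITGB7 have all 3 NB4 samples with OGP46 above all 3 NB4 controls, ITGA4 lies between 32.7 and 46.7 FPKM in all samples, and ITGB1 is about 4.30 times higher in Kasumi-1 controls than in NB4 controls.

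The first comparison asked how far the 2 lines differ before any compound. NB4 controls had more message of all 4 beta-2 genes, of ITGB7 and of ITGAE, and less of ITGB1, ITGA3 and ITGA5, than Kasumi-1 controls. By limma on log2(FPKM + 0.1), 6 members were higher and 3 lower in NB4, where a gene had to reach a Benjamini-Hochberg adjusted p below 0.05 over all genes tested and a log2 difference of at least 0.58 in size. Of the 12302 genes tested, 22.7% were higher in NB4 and 29.7% lower by the same rule, so that most genes of any kind differed between the lines. Within bulk samples, fewer cells with a message and less message per cell cannot be told apart. Nothing in the labels ties the samples to separate cultures, and p-values measure the spread between these samples.

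ITGB7 showed the widest gap. It was at 3.31, 3.90 and 2.58 FPKM in NB4 controls and at 0.0253, 0.0723 and 0 FPKM in Kasumi-1 controls. On the log2 scale, which understates differences of low genes, NB4 was higher by 4.68 (standard error 0.24, adjusted p = 3.15e-07 from limma). ITGAM, the alpha chain of Mac-1, was at 2.90, 2.40 and 2.91 FPKM in NB4 controls against 0.0922, 0.0881 and 0.0782 in Kasumi-1 controls, a log2 difference of 3.93 (standard error 0.15). Both genes were thus close to 0 in Kasumi-1. ITGB2, the shared beta chain, was at 50.4, 49.99 and 47.4 FPKM against 6.18, 8.35 and 11.5, a log2 difference of 2.54 (standard error 0.18). ITGAL followed with 2.13 and ITGAX with 1.75, and for each of these genes the lowest NB4 control lay above the highest Kasumi-1 control. With a pseudocount of 1, ITGAX (0.56), ITGA3 (−0.52) and ITGAE (0.35) were under the minimum, and 6 of the 9 calls were left. ITGAE was higher in NB4 by 0.68 (standard error 0.16, adjusted p = 0.00368 from limma). It is crossed by HASPIN, a kinase gene on the opposite strand, which stood at 3.86 ± 0.433 FPKM in NB4 controls and 2.63 ± 0.489 in Kasumi-1 controls, and reads of the 2 genes can be told apart only if the counting used strand.

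ITGB1 pointed the other way. It was at 18.8, 16.2 and 19.4 FPKM in NB4 controls and at 78.7, 76.8 and 78.5 in Kasumi-1 controls, a log2 difference of −2.10 (standard error 0.08). ITGA3, the laminin-binding alpha-3 chain, was at 0.121, 0.119 and 0.135 FPKM against 0.570, 0.736 and 0.546, a log2 difference of −1.66 (standard error 0.18). For ITGA5 the difference was −0.62 (standard error 0.15, adjusted p = 0.00525 from limma) and close to the minimum. It was −0.42 after scaling each sample to the same FPKM sum and −0.48 after centring on the median, and −0.54, −0.50 and −0.56 without Kasumi-1 control 3, NB4 control 1 or NB4 control 3, all below the minimum. ITGA4 did not pass, with 41.7, 41.6 and 40.1 FPKM in NB4 controls, 39.9, 37.7 and 40.4 in Kasumi-1 controls and a log2 difference of 0.06 (95% confidence interval −0.08 to 0.21).

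With OGP46, NB4 cells held more message of the myeloid integrins ITGAM (2.17 times the control mean) and ITGAX (2.33 times) and of ITGA3 (3.82 times). By limma, 3 of the 10 members rose and 0 fell, namely ITGAM, ITGAX and ITGA3. Of the 11750 genes tested in NB4, 1.45% rose and 0.111% fell. The replicate numbers in the labels were taken to pair control and OGP46 samples. The labels name no pairing, and it was inferred from correlations in these same data. With that number as a block 5 members rose and 0 fell, ITGAL and ITGB7 in addition, while 5.06% of all genes rose and 1.15% fell. In 6 members all OGP46 samples lay above all controls, and this was so for 32.7% of all genes tested. The median log2 fold change over the 10 genes was 0.59, and that over all genes tested was 0.18. The general shift was −0.04 after median centring, −0.01 after quantile normalization and 0.06 after TPM scaling, and under each of these 3 without the block, 0 members and 0 of all genes passed. Without the block, leaving out NB4 control 1, 2 or 3 or OGP46 sample 1 or 3 also lost all 3 calls, with adjusted p between 0.05001 and 0.134, and only the fit without OGP46 sample 2 kept them. ITGAM, ITGA3 and ITGB7 were singled out by the study in these same samples, so their direction here is not independent evidence.

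Of the leukocyte integrins, ITGAM was at 2.90, 2.40 and 2.91 FPKM in NB4 controls 1 to 3 and at 5.89, 5.09 and 6.81 FPKM with OGP46. Every OGP46 sample was above every control, and the log2 fold change was 1.08 with a standard error of 0.14 (limma adjusted p = 0.0233, and 6.21e-05 with the block). The dendritic and monocytic marker ITGAX went from 0.656, 0.554 and 0.786 FPKM to 1.71, 1.66 and 1.29 FPKM. The groups were again apart, with a log2 fold change of 1.11, a standard error of 0.18 and an adjusted p of 0.0335 (0.00131 with the block) from limma. With the block and median centring both genes were still past the threshold, at 0.86 for ITGAM and 0.89 for ITGAX.

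ITGAL, the LFA-1 alpha chain, was at 1.52, 1.57 and 0.970 FPKM in controls and 2.54, 3.06 and 1.48 FPKM with OGP46. Sample 3 was the lowest of both groups, so the groups overlapped while each pair was higher with OGP46. The log2 fold change was 0.73 (standard error 0.28) with an adjusted p of 0.133 without the block and 0.00269 with it by limma, and with the block and median centring it was 0.51 and no longer called. ITGB2 was at 50.4, 49.99 and 47.4 FPKM in controls and 67.5, 71.0 and 64.1 FPKM with OGP46. The groups did not overlap and the adjusted p was 0.0335, but the log2 fold change of 0.45 (standard error 0.07) was under the minimum of 0.58.

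Among the beta-1 partners, ITGA3 was at 0.121, 0.119 and 0.135 FPKM in NB4 controls and at 0.582, 0.461 and 0.391 FPKM with OGP46. These levels stayed below 1 FPKM in every NB4 sample, yet all OGP46 samples were clear of the controls. The ratio of mean FPKM was 3.82, and the log2 fold change with the pseudocount of 0.1 was 1.35 with a standard error of 0.22 (limma adjusted p = 0.0335, and 0.00271 with the block). With a pseudocount of 0.01 it was 1.84, and with a pseudocount of 1, at which ITGA3 was not called, it was 0.39. ITGB1 was at 18.8, 16.2 and 19.4 FPKM and, with OGP46, at 24.2, 21.3 and 23.6 FPKM. The groups did not overlap, and the log2 fold change was 0.35 (95% confidence interval 0.12 to 0.57, adjusted p = 0.0811, 0.0142 with the block), under the minimum either way.

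The fibronectin and VCAM1 receptors gave no call. ITGA4 was at 41.7, 41.6 and 40.1 FPKM in NB4 controls and spread from 32.7 through 39.7 to 46.7 FPKM in OGP46 samples 1 to 3. The controls lay within the spread of the OGP46 samples, with a log2 fold change of −0.07 (95% confidence interval −0.35 to 0.22). ITGA5 was at 18.1, 27.9 and 19.6 FPKM and at 18.5, 30.4 and 21.3 FPKM with OGP46, so that sample 2 was highest in both groups. Its log2 fold change was 0.09, with a 95% confidence interval of −0.39 to 0.57 without the block and −0.09 to 0.27 with it, and the sign turned after rescaling (−0.04 with TPM, −0.13 with median centring).

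The beta-7 pair split. ITGB7 was at 3.31, 3.90 and 2.58 FPKM in NB4 controls and at 6.59, 7.22 and 4.19 FPKM with OGP46. Sample 3 was the lowest of both groups, and its OGP46 value lay just above the highest control. The log2 fold change was 0.84 (standard error 0.22) with an adjusted p of 0.0726 without the block and 0.000375 with it by limma, and with the block and median centring it was 0.62 and still called. ZNF740, a gene that overlaps ITGB7 on the other strand, was at 8.85 ± 0.160 FPKM in controls and 9.18 ± 1.28 with OGP46. ITGAE was at 1.096, 1.24 and 0.888 FPKM and at 1.02, 1.29 and 1.17 FPKM with OGP46, an overlap with a log2 fold change of 0.11 (95% confidence interval −0.28 to 0.49).

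**Figure D2:**
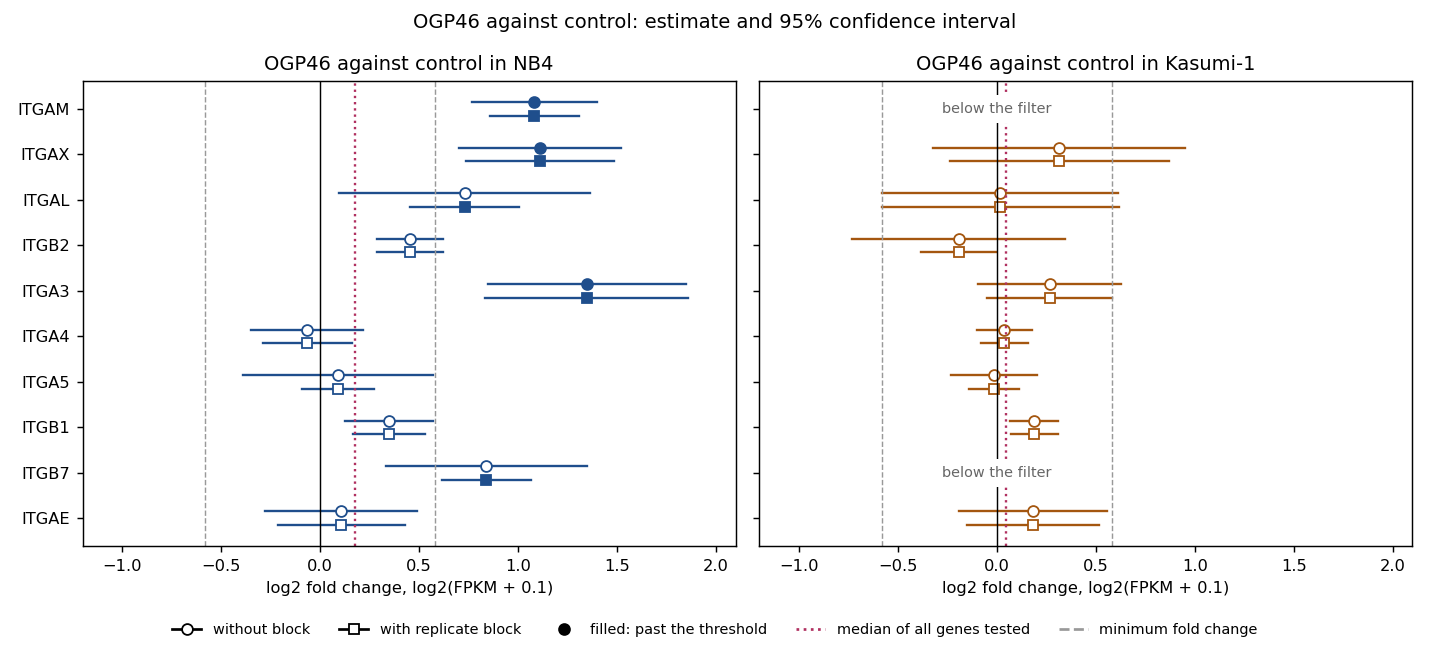
Log2 fold change of OGP46 against control (horizontal axis, on the log2(FPKM + 0.1) scale) for each integrin subunit gene in NB4 (left) and Kasumi-1 (right), with 95% confidence intervals without the replicate block (circles) and with it (squares), filled where past the threshold. In NB4, ITGAM, ITGAX and ITGA3 are filled in both fits and ITGAL and ITGB7 only with the block, while no gene is filled in Kasumi-1.

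In Kasumi-1 cells, no member passed the test in either direction. ITGAM and ITGB7 had mean levels below 0.1 FPKM and were not tested, and of the 8 tested members 0 rose and 0 fell by limma, with and without the block, while 1 (ITGB1) had an unadjusted p below 0.05. Few genes of any kind passed: of 11835 tested, 0.0169% rose and 0.0169% fell without the block, and 0.27% rose and 0.346% fell with it. The median log2 fold change was 0.11 over the 8 members and 0.05 over all genes.

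ITGB1, the most abundant subunit of this line, was at 78.7, 76.8 and 78.5 FPKM in Kasumi-1 controls and at 91.4, 86.5 and 89.0 FPKM with OGP46. It was the only tested member in which all OGP46 samples lay above all controls, a separation seen in 17.4% of all genes tested. Its log2 fold change was 0.19 (95% confidence interval 0.07 to 0.31, adjusted p = 0.152 from limma, 0.0771 with the block). ITGB2 was at 6.18, 8.35 and 11.5 FPKM in controls and at 6.07, 6.15 and 10.5 FPKM with OGP46. Sample 3 was the highest of both groups, and the log2 fold change was −0.19 (95% confidence interval −0.73 to 0.35 without the block and −0.38 to −0.0045 with it, adjusted p = 0.208 with the block).

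ITGAM was at 0.0922, 0.0881 and 0.0782 FPKM in Kasumi-1 controls and at 0.139, 0.0782 and 0.106 FPKM with OGP46, and ITGB7 at 0.0253, 0.0723 and 0 FPKM and at 0.0153, 0.0145 and 0.0137 FPKM. Both genes stayed near 0 in all 6 samples. ITGAX was at 0.0904, 0.120 and 0.175 FPKM and at 0.111, 0.192 and 0.261 FPKM with OGP46, with overlap and a log2 fold change of 0.31 (95% confidence interval −0.32 to 0.95). ITGA3 was at 0.570, 0.736 and 0.546 FPKM and at 0.752, 0.823 and 0.701 FPKM with OGP46, with a log2 fold change of 0.27 (95% confidence interval −0.10 to 0.63). The remaining members had log2 fold changes of 0.04 (ITGA4), −0.01 (ITGA5), 0.02 (ITGAL) and 0.18 (ITGAE), all with overlapping groups.

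Whether the response itself differed between the lines was asked of the interaction term for line and compound in 1 limma model of the 12 samples. Without the block, 0.0% of the 12309 genes tested passed, and so none of the members. At an unadjusted p below 0.05 and the same minimum, 369 genes had a higher and 86 a lower fold change in NB4. Of all genes tested, 75.7% had a positive difference, and the median difference was 0.12. After median centring the 2 counts were 172 and 188, and after TPM scaling 189 and 145. With the block, 1.4% of genes had a higher and 0.106% a lower fold change in NB4, and 3 members were among the higher ones. These were ITGA3, with a fold change larger in NB4 by 1.08 (95% confidence interval 0.60 to 1.57, adjusted p = 0.0377 from limma), ITGAM by 0.94 (0.53 to 1.34, adjusted p = 0.0342) and ITGB2 by 0.65 (0.39 to 0.90, adjusted p = 0.0249). For ITGB2 the difference combined 0.45 in NB4 with −0.19 in Kasumi-1, neither of them called. None of the 3 passed with the block and median centring or with the block and TPM scaling, where their differences were 0.93, 0.79 and 0.50 and 1.00, 0.81 and 0.50. For ITGB7 the difference was 1.02 (adjusted p = 0.0587 with the block), for ITGAX 0.80 (0.133) and for ITGAL 0.71 (0.235). ITGAM and ITGB7 averaged below 0.1 FPKM over the Kasumi-1 samples and entered this fit through their NB4 levels. Their Kasumi-1 fold changes are held close to 0 by the pseudocount, so their differences mostly restate the NB4 change. ITGB1, ITGA4, ITGA5 and ITGAE had differences of 0.16, −0.10, 0.10 and −0.08.

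Since a beta chain needs an alpha chain, the partners were also set side by side within each sample. The alpha chains of ITGB2 (ITGAL, ITGAM, ITGAX and ITGAD) summed to 5.16, 4.54 and 4.73 FPKM in NB4 controls and 10.4, 9.84 and 9.75 FPKM with OGP46. In each sample ITGB2 was well in excess of them, and its ratio to their sum was lower with OGP46. Its FPKM was 9.77, 11.01 and 10.02 times the sum in controls and 6.46, 7.21 and 6.57 times with OGP46. In Kasumi-1 the sum was 0.383 to 0.496 FPKM in controls and 0.422 to 0.716 with OGP46, and ITGB2 stood at 16.1 to 25.5 and 13.1 to 14.7 times this. ITGAM was the main alpha chain of NB4, with 56.9% ± 4.38 of the sum in controls and 59.3% ± 9.39 with OGP46 (SD, n = 3), against 19.8% ± 3.75 in Kasumi-1 controls. ITGAL held 28.2% ± 7.13 in NB4 controls and 23.5% ± 7.98 with OGP46, a difference of −4.63 percentage points (exact permutation test, two-sided, p = 0.6). The share was lower with OGP46 in each of the 3 pairs, and within pairs the exact p was 0.25, the smallest that 3 pairs allow. In Kasumi-1 it held 51.3% ± 7.23 in controls and 43.7% ± 6.82 with OGP46 (−7.59 points, exact p = 0.3). Between the controls of the lines the share of ITGAL was lower in NB4 by 23.1 points on average, with no overlap (exact p = 0.1, the smallest that 3 against 3 samples allow).

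On the beta-1 side the summed FPKM of the alpha chains exceeded that of ITGB1 in every sample of both lines, and by more in NB4. The sum covers ITGA1 to ITGA11 and ITGAV, without ITGA2B, and includes chains that also pair with other beta chains, such as ITGA4 with ITGB7. ITGB1 was at 0.292, 0.219 and 0.300 times the summed FPKM of its alpha chains in NB4 controls and at 0.425, 0.280 and 0.317 times with OGP46, with overlap but higher in each of the 3 pairs. In Kasumi-1 it was at 0.807 to 0.864 times in controls and 0.856 to 0.937 times with OGP46. ITGA4 held 65.4% ± 5.09 of the summed FPKM of ITGA3, ITGA4 and ITGA5 in NB4 controls and 62.6% ± 6.08 with OGP46 (SD, n = 3, exact permutation test, p = 0.6). In Kasumi-1 the shares were 53.9% ± 2.43 and 54.7% ± 2.16 (exact p = 0.7), higher in each of the 3 pairs (exact p = 0.25 within pairs). Over all alpha chains of ITGB1 the Kasumi-1 share was instead lower with OGP46 in each pair. It was 43.8%, 41.9% and 41.5% in controls and 42.0%, 41.1% and 40.6% with OGP46. Among ITGA3, ITGA4 and ITGA5, the share in NB4 controls exceeded that in Kasumi-1 controls by 11.6 points, with no overlap (exact p = 0.1). All 6 of these tests of shares are between groups of 3, and none could reach 0.05.

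**Figure D3:**
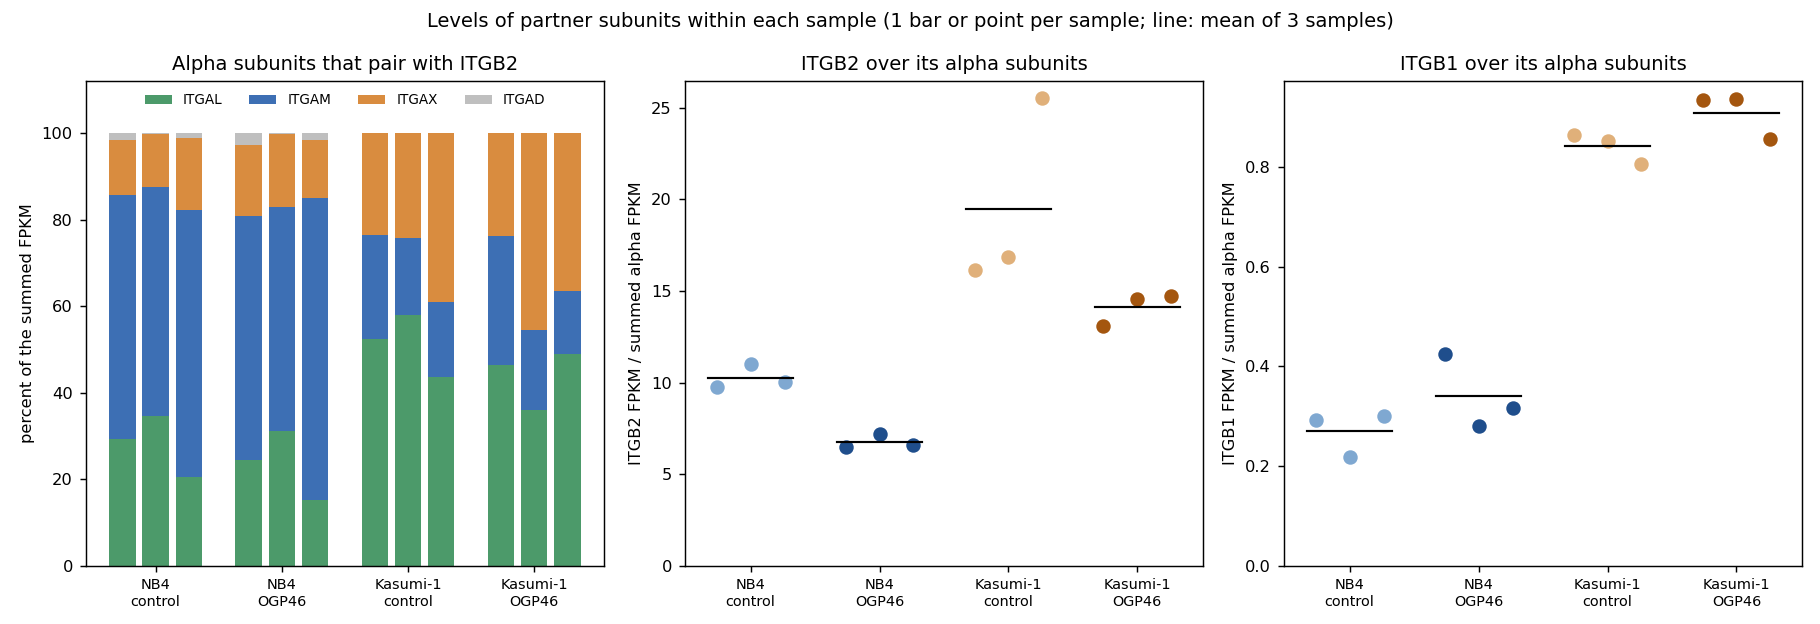
Left: percent of the summed FPKM of the alpha chains of ITGB2 held by ITGAL, ITGAM, ITGAX and ITGAD, 1 bar per sample. Middle and right: FPKM of ITGB2 and of ITGB1 divided by the summed FPKM of their alpha chains, 1 point per sample with the group mean as a line. ITGAM is the largest part in NB4 and ITGAL in most Kasumi-1 samples, and the ITGB2 ratio of NB4 falls between 9.77 and 11.01 in controls and between 6.46 and 7.21 with OGP46.

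The other 16 integrin subunits, which were listed for comparison, gave no call with OGP46. In NB4, 5 of them were tested by limma, 0 rose and 0 fell with or without the block, 2 had an unadjusted p below 0.05, and their median log2 fold change was 0.03. ITGAV, the alpha chain of vitronectin receptors, came closest, at 2.38 ± 0.219 FPKM in NB4 controls and 3.48 ± 0.194 with OGP46 (log2 fold change 0.53, under the minimum, adjusted p = 0.0562). ITGAD had a log2 fold change of 0.68 with overlapping groups, and ITGA2B, the platelet alpha chain, one of −0.43. In Kasumi-1, 7 were tested, none was called by limma and 2 had an unadjusted p below 0.05. There ITGAV had a log2 fold change of 0.35, ITGB4 one of −0.28 and ITGA6 one of 0.26. ITGAV and ITGA6 made up part of the alpha message of Kasumi-1, at 8.80 ± 0.542 and 5.70 ± 0.506 FPKM in controls, and both were lower in NB4 controls (log2 difference −1.84 and −2.28).

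On the inner side of the membrane, talin and kindlin switch integrins on, RAP1 and its partners recruit them, and kinases and adaptors gather at the tails. Of 33 such genes reported here, 32 were found and 27 tested in NB4. None was called by limma without the block, although 15 had an unadjusted p below 0.05, all of them higher with OGP46, and 3 rose with the block. The 3 were the tyrosine kinases FGR (0.99) and SRC (0.79) and the focal adhesion adaptor PXN (0.74), from control means of 0.172, 0.354 and 0.307 FPKM. The list's median log2 fold change was 0.31, against 0.18 over all genes tested in NB4, of which 81.9% had a positive one. FERMT3, the kindlin of blood cells, was at 53.1 ± 2.05 FPKM in controls and 73.6 ± 7.15 with OGP46, a log2 fold change of 0.47 that was under the minimum (adjusted p = 0.0397). In Kasumi-1, 26 of these genes were tested and none was called by limma, with or without the block, while 8 had an unadjusted p below 0.05. The largest log2 fold changes there were 0.34 for SKAP2, 0.29 for PXN and −0.23 for RASGRP2.

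Of 24 genes for integrin ligands, 9 were tested in NB4. F11R (JAM-A), a ligand of LFA-1, rose from 7.89 ± 0.841 to 12.1 ± 0.727 FPKM (SD, n = 3, log2 fold change 0.62, adjusted p = 0.0335 from limma), and with the block THBS1, ICAM1, SPP1 and C3 rose as well. In ICAM1, THBS1 and C3, the NB4 samples numbered 2 were the lowest of both groups. ICAM1, the main ligand of LFA-1 and Mac-1, was at 18.1, 2.44 and 19.2 FPKM in controls and 38.3, 8.35 and 35.1 FPKM with OGP46. Its groups overlapped while every pair was higher with OGP46, and the log2 fold change of 1.23 had an adjusted p of 0.343 without the block and 0.000191 with it. THBS1, thrombospondin 1, was at 4.26, 0.0928 and 1.96 FPKM and at 23.1, 0.491 and 9.62 FPKM, and its groups overlapped too. The log2 fold change was 2.09 for THBS1, 0.81 for SPP1 (osteopontin, below 1 FPKM) and 0.76 for C3, the source of iC3b. In Kasumi-1, 9 ligand genes were tested by limma and none was called, with 1 (F11R) at an unadjusted p below 0.05. F11R had a log2 fold change of 0.25 there, C3 one of −0.28 and ICAM5 one of −0.22. VCAM1, MADCAM1 and CDH1, the ligands of ITGA4 with ITGB1, of ITGA4 with ITGB7 and of ITGAE with ITGB7, averaged at most 0.00447 FPKM in every group.

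The 11 membrane partners, mostly tetraspanins that sit beside integrins, were all tested in NB4. CD82 (log2 fold change 0.58, adjusted p = 0.0335 from limma) and PLAUR, the urokinase receptor and a partner of Mac-1 (0.68, adjusted p = 0.0462), rose, and with the block CD53 (0.61) rose as well. CD37 had a log2 fold change of 0.63 and was not called either way. CD82 went from 22.3 ± 2.21 to 33.4 ± 2.30 FPKM and PLAUR from 1.56 ± 0.129 to 2.58 ± 0.336. F11R and CD82 passed in 1 of the 6 fits that leave out a sample and PLAUR in 0 of them, and under TPM scaling, median centring or quantile normalization without the block all 3 calls were lost. In Kasumi-1, 10 partners were tested by limma, none was called and 3 had an unadjusted p below 0.05. CD47, CD63 and CD53 had the largest log2 fold changes, at 0.26, 0.20 and 0.18. The shares of all genes called, given above for each line, apply to these lists too. They are for genes past the threshold. For the counts at an unadjusted p below 0.05, of members and of lists, no share of all genes is given, so these counts are descriptive only. In the test of the difference between the lines, none of the 4 lists had a call by limma without the block. There 2, 6, 4 and 3 of their genes had an unadjusted p below 0.05. With the block ICAM1, THBS1, C3, ICAM3 and CD82 had a larger fold change in NB4. THBS1 averaged 0.0114 FPKM in Kasumi-1 controls and 0.0091 with OGP46, and it entered this fit through its NB4 levels. Its Kasumi-1 fold change is held close to 0 by the pseudocount, so its difference mostly restates the NB4 change. Between the controls, NB4 was higher in 2 and lower in 5 of the other subunits, higher in 9 and lower in 8 of the adaptors, higher in 3 and lower in 5 of the ligands and higher in 4 and lower in 3 of the partners.

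**Figure D4:**
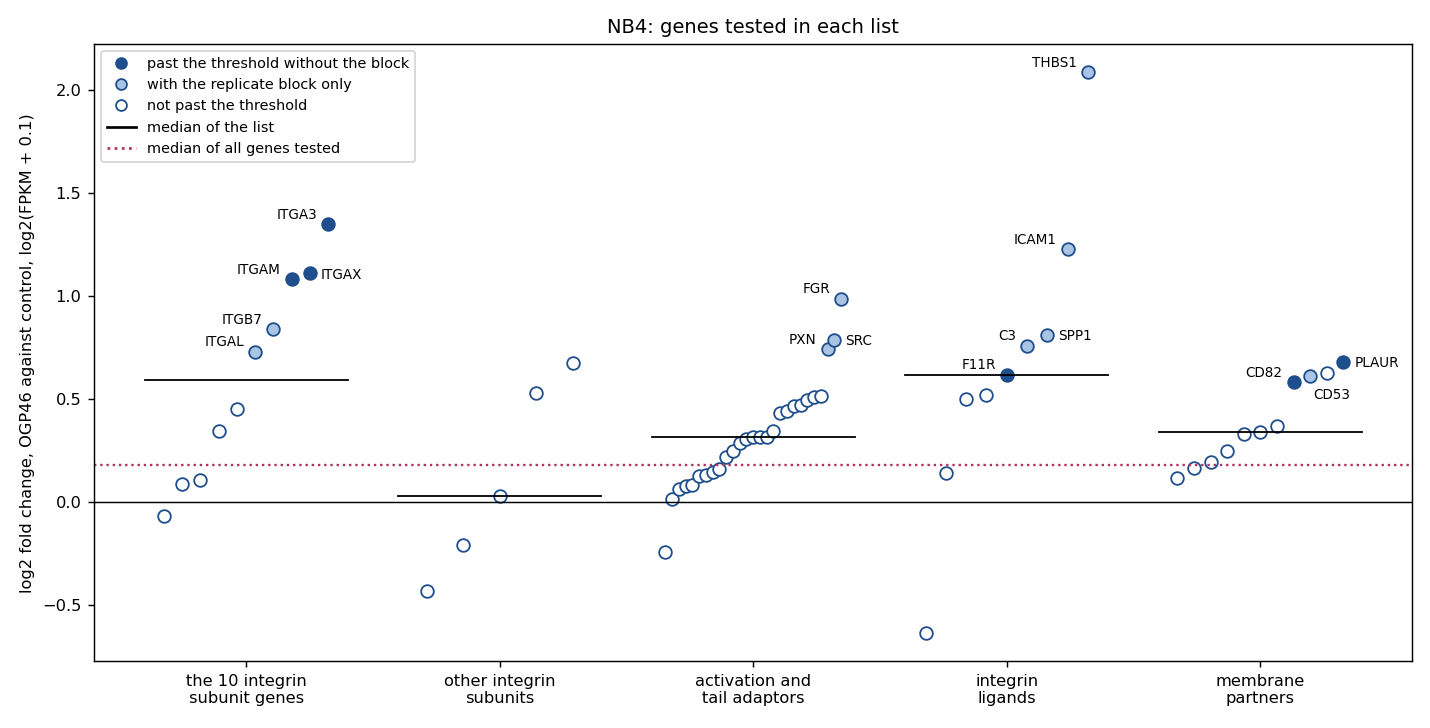
Log2 fold change of OGP46 against control in NB4 (vertical axis, on the log2(FPKM + 0.1) scale) for each tested gene of the integrin subunits and of 4 lists, dark where past the threshold without the block, light where with the block only and open otherwise, with the median of each list as a line. Of the 10 subunit genes 3 are dark and 2 light, the other subunits have none of either, and the dotted line marks the median of 0.18 over all genes tested.

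Genes that followed the pattern of ITGAM over the 12 samples were sought among 9943 genes that averaged 1 FPKM or more, by the root mean square difference of their centred log2(FPKM + 0.1) values. The closest was PERP, a gene of cell adhesion plaques, at 0.183, and APOBR at 0.269, VENTX at 0.281 and CDC42EP3 at 0.285 were also among the 5 closest. PERP stood at 1.503 FPKM in NB4 controls, 3.43 in NB4 with OGP46 and 0.0129 and 0.00814 in the 2 Kasumi-1 groups. APOBR had means of 7.64, 11.8, 0.263 and 0.286 FPKM in the same order. The likeness is a description of these 12 samples, in which the gap between the lines weighs most.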

How the data were processed

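NB4 and Kasumi-1 cells were profiled by mRNA-seq, with 3 control and 3 OGP46 samples per cell line. Per the labels and the methods, cells were collected after 48 h, although a figure legend of the study gives another time. For every sample the authors deposited a table of FPKM by gene symbol. FPKM are already divided by gene length and by mapped fragments, so a change in a few abundant genes moves all others. Per the submitters' processing notes, Trimmomatic, HISAT2, Cufflinks and HTSeq were used with hg38. Whether counting used strand is not given in the sources used here. The kit was a stranded one with poly(A) selection. Of 163760 values above 0, 632 were below 1e-04. Depth is unknown, and no counting error is given. Symbols turned into dates (27) were left out, which left 20003 genes. Positions are from GENCODE release 29 and upstream sequences from RefSeq, for the 6 members with an entry.

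The members and lists were chosen with earlier results of these data known. Genes that averaged 0.1 FPKM or more in the samples fitted were compared on log2(FPKM + 0.1) with limma version 3.58.1 in R version 4.3.3 (empirical Bayes with a mean-variance trend, two-sided, Benjamini-Hochberg adjustment over all genes tested). The threshold was an adjusted p below 0.05 and a log2 difference of at least 0.58, the minimum in the study's methods, which name ANOVA for the experiments in general and no test for mRNA-seq in particular. The fits within each line and between the controls were tested on simulated data, without the block. The interaction fit and the fits with the block were not. Shares were compared by exact permutation tests. All members were named, and of the lists the genes past the threshold with OGP46 and the 3 largest changes per line. The results of 2 genes that these rules select are not reported here. FERMT3, VCAM1, MADCAM1, CDH1, CD3D, CD2 and MS4A1 were named after their values were seen. The alternatives were a pseudocount of 1 or 0.01, no filter, a minimum mean of 1 FPKM, quantile normalization, TPM scaling, median centring, no trend, array weights, a replicate block alone or with either scaling, and leaving out each sample.

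As a check of the pairing, the deviations of same-numbered samples from their group means were correlated across all genes tested. Pearson r was 0.35, 0.62 and 0.20 in NB4 and 0.22, 0.16 and 0.40 in Kasumi-1, all above 0.1, so the numbers were taken to pair control and OGP46 samples within a line. In NB4, however, OGP46 sample 3 correlated slightly better with control 1 (0.22) than with control 3, and calls made only with the block rest on this pairing. Genes are not independent replicates.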

Additional observations from a re-analysis of the deposited data

Results flagged for a closer look

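The integrin genes ITGA3, ITGAM and ITGB2 had a larger log2 fold change with OGP46 in NB4 than in Kasumi-1 by the interaction term of limma with the replicate block. The difference was 1.08 for ITGA3, 0.94 for ITGAM and 0.65 for ITGB2. In NB4 all 3 were higher in 3 of 3 pairs, and in Kasumi-1 ITGA3 was higher in 3, ITGAM in 2 and ITGB2 in 0 of 3 pairs. The fit with the block uses these same inferred pairs, so the pair counts are not separate evidence. Of all genes tested in NB4, 81.9% had a positive log2 fold change. Without the block the adjusted p was 0.122, 0.151 and 0.457, and with the block and either rescaling none of them passed. The cause was not tested. In Kasumi-1, ITGAM was below 0.1 FPKM on average, so that its fold change there on the log2(FPKM + 0.1) scale is held close to 0.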

How the results depend on the processing

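The 9 members called between NB4 and Kasumi-1 controls kept their sign under every setting run. With a minimum mean of 1 FPKM, at which fewer members were tested, 5 were called, and with a pseudocount of 1, 6. Of all genes, 2790 were higher and 3659 lower in NB4, against 3595 and 2994 after TPM scaling and 3330 and 3162 after median centring. The controls of the lines share only a number, as same-numbered samples deviated with r of −0.049, 0.018 and −0.0047 across genes, none above 0.1, and not every sample correlated best with its own number. The replicate block there gave 2792 and 3674 genes and left 9 members called. Apart from the calls given here and in the report, the block changed no call of a member.

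The NB4 calls were more sensitive. Of all genes tested, 183 passed (170 higher, 13 lower), and 117 with a pseudocount of 1, 4 without a filter or without a trend, and 0 with TPM scaling, median centring or quantile normalization. With the replicate block, which uses the pairing, 730 passed (595 higher, 135 lower), with the block and median centring 391 (188 higher, 203 lower) and with the block and TPM scaling 452 (310 higher, 142 lower). Of the members, 3 passed, 0 without a filter, without a trend or under each of the 3 scalings, 5 with the block and 5 with the block and TPM scaling. Leaving out 1 sample gave 0 to 396 genes and 0 to 3 members. The cause of these changes was not tested.

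In Kasumi-1, 4 genes passed, and 2 with a pseudocount of 1, 0 without a filter or a trend, 24 with a minimum mean of 1 FPKM, 18 with TPM scaling or median centring, 11 with quantile normalization, 27 with array weights, 73 with the replicate block, 93 with the block and median centring, 98 with the block and TPM scaling and 0 to 11 without 1 sample. No member passed in any of these. For the interaction, 0 genes passed, and 12 with a pseudocount of 1 (1 member, ITGAM), 185 with the replicate block (3 members), 81 with the block and median centring, 75 with the block and TPM scaling (0 members in both) and 0 to 1 without 1 sample.

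Signs turned for differences that were not called, and the cause was not tested. With the same values with and without the replicate block, median centring gave −0.050 for ITGAL and −0.029 for ITGA4 in Kasumi-1, −0.13 for ITGA5 and −0.11 for ITGAE in NB4 and −0.045 for the interaction of ITGA5, while TPM scaling gave −0.036 for ITGA5 and −0.0095 for ITGAE in NB4, 0.0044 for ITGA5 in Kasumi-1 and −0.040 for the interaction of ITGA5. Quantile normalization gave −0.090 for ITGA5 and −0.085 for ITGAE in NB4, and interactions of −0.074 for ITGA5 and −0.033 for ITGB1. Array weights gave −0.077 for ITGAL and −0.0026 for ITGA4 in Kasumi-1 and an interaction of 0.041 for ITGAE. Without 1 sample, differences ranged in NB4 from −0.19 to 0.067 for ITGA4, −0.12 to 0.28 for ITGA5 and −0.013 to 0.21 for ITGAE. In Kasumi-1 they ranged from −0.21 to 0.21 for ITGAL, −0.45 to 0.028 for ITGB2 and −0.11 to 0.062 for ITGA5, and for the interaction from −0.23 to 0.030 for ITGA4, −0.10 to 0.29 for ITGA5 and −0.20 to 0.061 for ITGAE. The difference in the share of ITGA4 was −1.21 percentage points in Kasumi-1 over all alpha chains of ITGB1, and without 1 sample it ranged from −5.74 to 0.32 points in NB4 and −0.28 to 2.17 in Kasumi-1.

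Depth is unknown, so the reliability of values near 0.1 FPKM (ITGAM, ITGAX and ITGB7 in Kasumi-1, ITGA3 in NB4 controls) could not be given, and fold changes at such levels depend on the pseudocount. Fits that leave out a sample rest on 2 samples in 1 arm and take its spread from the pooled estimate of limma.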
